A study of Rattus norvegicus with 18 samples.

Results

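The genes described here encode 10 plasma proteins of the acute phase response: *A2m*, *Orm1*, *Hp*, *Lbp*, *Serpina3n*, *Fga*, *Fgb*, *Fgg*, *Itih4* and *Hpx*. They were taken by symbol from the deposited lung RNA-seq tables, which hold 22081 genes, and 9 of the 10 had a row. *Serpina3n* was not analysed here. Male F344/DuCrlCrlj rats received MWNT-7, a rigid multiwalled carbon nanotube (MWCNT), by intratracheal instillation at 0.5 mg/kg every 4 weeks from 9 weeks of age, or the vehicle, saline with Tween 80. RNA came from whole accessory lobe tissue free of visible tumour, taken at 3 time points (Year 0.5, Year 1, Year 2), with 3 controls and 3 treated animals per time point and 18 separate rats in all. Each treated rat had therefore been dosed repeatedly, so that age, length of exposure and total dose rose together over the time points and cannot be told apart.

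The acute phase response is the rise of a set of secreted proteins in injury, infection or chronic inflammation. In liver, cytokines of the interleukin-6 family act through STAT3, and interleukin-1 acts through NF-kB and C/EBP factors, to raise transcription of these genes. Hepatocytes are the classical source of the plasma proteins, and lung epithelial cells are known to make some of them, haptoglobin and LBP among them. The proteins inhibit proteases (A2m), bind released haemoglobin or haem (Hp, Hpx), present bacterial lipopolysaccharide (Lbp), carry small lipophilic molecules (Orm1), form clots (the 3 fibrinogen chains Fga, Fgb and Fgg) or belong to the inter-alpha-trypsin inhibitor family (Itih4).

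Of the members tested in MWCNT-treated against control lungs, 5 of 6 were called higher at Year 0.5. This was 7 of 7 at Year 1 and 6 of 7 at Year 2, and no member was called lower. Of all tested genes, 9.1%, 10.2% and 16.4% were called in either direction. *Orm1*, counted at Year 1 and Year 2, passed the filter on low counts through treated rats alone and adds nothing to these counts. Among the values that met the study's criterion, changes ranged from 2.01-fold for *Lbp* at Year 1 to 94.1-fold for *A2m* at Year 2. Of the fibrinogen genes *Fgg* was abundant in every lung, whereas *Fga* and *Fgb* had next to no reads. Levels are given as TPM, a share of all transcripts that is corrected for transcript length and can be compared between genes. Differences are log2 fold changes from edgeR with standard errors (SE), and a gene counted as a DEG, or was called, when its FDR was under 0.05 and its log2 fold change lay above 1 or below -1. Total counts were 13297643 to 17868851 in control rats (median 14721398) and 14661589 to 21130757 in MWCNT-treated rats (median 15804905). Because whole lung was sequenced, more cells of a type and more RNA per cell cannot be told apart in any value below.

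At Year 0.5, 5 of the 6 members that passed the filter on low counts were called, *A2m*, *Hp*, *Lbp*, *Itih4* and *Hpx*, where 9.1% of all 14315 genes tested were called in either direction. At Year 1, all 7 tested members were called, *Orm1* and *Fgg* being added, against 10.2% of 14345 genes. At Year 2, 6 of 7 were called, without *Itih4*, against 16.4% of 14361 genes. All of these calls were higher in treated rats. *Fga* and *Fgb* were never tested, and neither was *Orm1* at Year 0.5. *Orm1* passed the filter at Year 1 and Year 2 through the treated rats alone, since no control rat reached the limit, so its call there adds nothing to these counts. The filter asked for 3 rats at the limit. *A2m* at Year 0.5 and Year 2 and *Itih4* at Year 0.5 had 2 control and 3 treated rats there. Their controls alone would not have passed, which limits what those calls add.

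**Figure D1:**
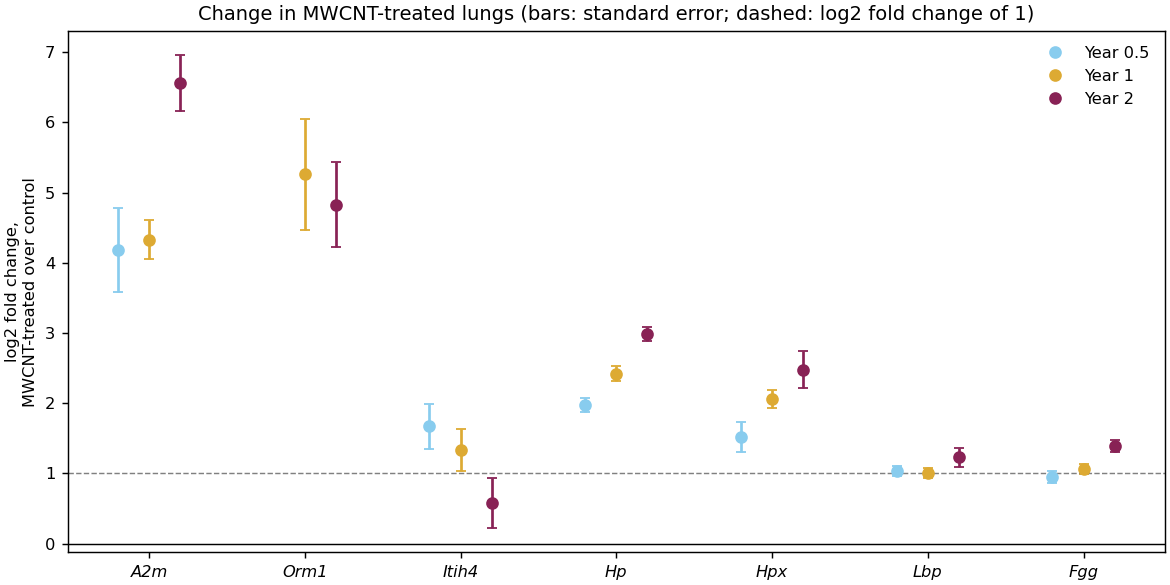
Log2 fold change of the 7 tested members in MWCNT-treated over control lungs at each year, with bars of 1 standard error from edgeR and 3 rats per group. The dashed line marks a log2 fold change of 1. *A2m* and *Orm1* lie above 4, *Hp* and *Hpx* rise from 1.97 and 1.52 at Year 0.5 to 2.99 and 2.48 at Year 2, *Lbp* and *Fgg* lie near the line, and *Itih4* is at 0.58 at Year 2.

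The fibrinogen genes sit side by side, and one of the 3 was abundant in lung while its neighbours were not. Their start regions are shown as a description. In the tables' build, Rnor_6.0, *Fgg* (ENSRNOG00000025074) lies on the plus strand at chr2:181987217-181994514, *Fga* (ENSRNOG00000024848) at chr2:182006242-182013763, 11728 bases downstream, and *Fgb* (ENSRNOG00000007092) on the minus strand at chr2:182027115-182038178. The sequences below are RefSeq promoter windows of the GRCr8 assembly, 250 bases before to 50 bases after the annotated start, at chr2:170652833-170653132 (plus strand) for *Fgg*, chr2:170671919-170672218 (plus strand, the first of its 2 entries) for *Fga*, and chr2:170700826-170701125 (minus strand) for *Fgb*. Capitals mark CTGGGAA, the core letters of the classical interleukin-6 response element, and TATAA, the TATA box letters, each searched on both strands.
Fgg: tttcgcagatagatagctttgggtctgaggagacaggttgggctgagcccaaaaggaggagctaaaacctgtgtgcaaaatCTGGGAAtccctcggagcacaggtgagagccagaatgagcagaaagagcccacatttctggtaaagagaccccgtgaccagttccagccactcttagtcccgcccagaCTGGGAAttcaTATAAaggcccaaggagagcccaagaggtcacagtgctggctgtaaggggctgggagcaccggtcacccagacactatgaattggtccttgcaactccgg
Fga: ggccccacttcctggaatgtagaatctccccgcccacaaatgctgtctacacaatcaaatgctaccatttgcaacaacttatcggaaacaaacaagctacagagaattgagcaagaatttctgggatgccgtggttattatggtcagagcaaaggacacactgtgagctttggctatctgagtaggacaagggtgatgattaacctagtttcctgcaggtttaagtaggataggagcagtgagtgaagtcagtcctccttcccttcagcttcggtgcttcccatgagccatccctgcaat
Fgb: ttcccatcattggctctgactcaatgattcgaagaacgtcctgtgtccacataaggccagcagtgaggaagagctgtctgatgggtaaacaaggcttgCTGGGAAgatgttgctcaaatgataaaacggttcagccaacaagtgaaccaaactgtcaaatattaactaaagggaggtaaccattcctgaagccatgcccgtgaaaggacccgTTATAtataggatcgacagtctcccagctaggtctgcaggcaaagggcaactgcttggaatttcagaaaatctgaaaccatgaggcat

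The *Fgg* window held 2 copies of CTGGGAA, beginning at -169 and -61 from the start, and TATAA at -50. *Fgb* held 1 copy, at -152, and TATAA on the other strand at -38, while the *Fga* window held neither. Over all 33469 rat promoter windows of this length, 11.3% held CTGGGAA, 0.753% held 2 or more copies and 26.2% held TATAA. The palindrome TTCNNNGAA, a general STAT motif that can overlap CTGGGAA, was in 8.87% of windows, and it occurred once in *Fga* and once in *Fgb* but not in *Fgg*. TTNNGNAA, a loose C/EBP-type motif found in 41.3% of windows, had 0 matches in *Fgg*, 1 in *Fga* and 4 in *Fgb*. Some of these matches overlapped one another. Among the other members with a RefSeq entry, *Itih4* held 1 CTGGGAA at -89 and *Serpina3n* 1 at -123, each overlapping a TTCNNNGAA, and each held TTNNGNAA, while *Orm1* and *Hpx* held only TTNNGNAA of these 3 motifs. These matches describe letters in a window and were not tested for function. Their part in the levels of the genes was not tested either.

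Fgg encodes the gamma chain of fibrinogen, which joins the alpha chain (Fga) and beta chain (Fgb) in the secreted clotting protein. In control rats *Fgg* stood at 117, 94.7 and 112 TPM at Year 0.5, at 112, 116 and 119 at Year 1, and at 78.2, 74 and 75.5 at Year 2. Treated rats had 194, 192 and 181, then 207, 208 and 201, and finally 178, 157 and 180. Every treated rat was thus above every control rat, and the Year 2 controls were the lowest of all groups. The log2 fold change was 0.95 (SE 0.08, FDR 6.26e-05) at Year 0.5, just under the fold threshold, 1.06 (SE 0.07, FDR 1.31e-05) at Year 1 and 1.39 (SE 0.08, FDR 2.76e-06) at Year 2. Between Year 0.5 and Year 2 *Fgg* fell by 0.50 on the log2 scale in control rats (SE 0.08, FDR 0.00255), within the fold threshold, and differed by -0.05 (SE 0.08, FDR 0.73) in treated rats. The call at Year 1 was lost with library-size scaling (0.93) and with limma on log2(TPM + 1) (0.82). At Year 0.5 the gene became a DEG when control replicate 1 (1.01) or MWCNT replicate 3 (1.00) was left out.

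*Fga* had 1 read in each of 2 treated rats, one at Year 0.5 and one at Year 2, and none in the other 16 lungs. *Fgb* had 2 reads in 1 control rat at Year 1 and none in the other 17. Over the same 281772239 counts *Fgg* had 33369 reads, between 796 and 3251 per rat. A count of 0 allows up to 3 reads, which is 0.142 to 0.226 CPM (counts scaled to a fixed library total) depending on the library, so lower levels of the alpha and beta chains were not detectable at this depth. That limit covers counting error only. *Plrg1*, the next gene beyond *Fgb*, had 493 to 774 reads, and *Lrat*, on the other side of *Fgg*, had 99 to 533. How well reads of *Fga* and *Fgb* themselves could be mapped was not tested.

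**Figure D2:**
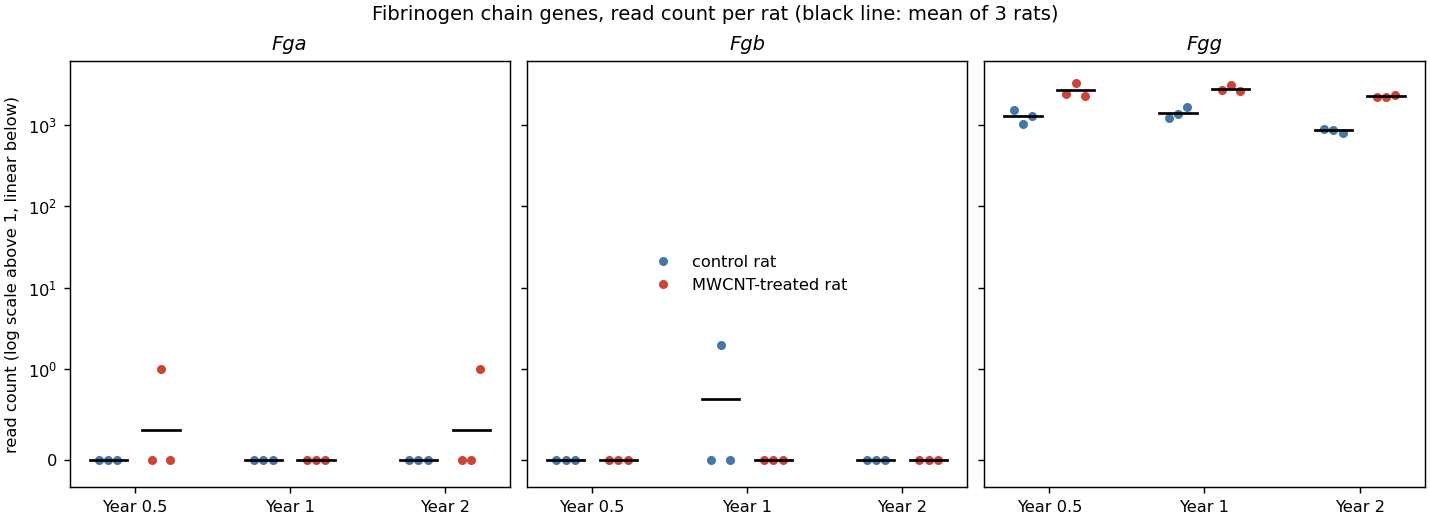
Read counts of the 3 fibrinogen chain genes in each of the 18 lungs, by year, on an axis that is logarithmic above 1 and linear below, with the mean of 3 rats as a black line. *Fgg* lies between 796 and 3251 reads in all lungs, while *Fga* and *Fgb* reach at most 1 and 2 reads.

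*Hp* (chr19:42097995-42100804) encodes haptoglobin, the plasma protein that captures free haemoglobin. Control levels were 48.7, 42.2 and 56.5 TPM at Year 0.5, 55.5, 54 and 71.6 at Year 1, and 49.8, 43 and 51 at Year 2. Treated levels were 174, 179 and 170, then 282, 262 and 283, and then 336, 303 and 346. The treated groups overlapped neither the controls nor each other, with means of 174 ± 4.51, 276 ± 12 and 328 ± 22.5 TPM (SD, n = 3 rats each), while controls ranged from 42.2 to 71.6 TPM, highest at Year 1. *Hp* was upregulated 3.92-fold at Year 0.5 (log2 fold change 1.97, SE 0.10, FDR 5.4e-06), 5.36-fold at Year 1 (2.42, SE 0.11, FDR 2.22e-06) and 7.95-fold at Year 2 (2.99, SE 0.10, FDR 1.94e-07). In treated rats its level was higher at Year 2 than at Year 0.5 by 1.00 on the log2 scale (SE 0.10, FDR 1.81e-05), short of the fold threshold before rounding, and higher at Year 1 than at Year 0.5 by 0.72 (SE 0.10, FDR 0.00552). In control rats the Year 2 level differed from Year 0.5 by -0.03 (SE 0.11, FDR 0.91). The Year 2 change in treated rats met the DEG criterion without MWCNT replicate 2 of Year 0.5 (1.03) or of Year 2 (1.06), or with the stricter filter on low counts.

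*Hpx* (chr1:170423483-170431073, minus strand) encodes hemopexin, which binds free haem. Its control levels were 4.84, 3.77 and 4.4 TPM at Year 0.5, 4.98, 4.88 and 4.83 at Year 1, and 5.55, 6.45 and 4.95 at Year 2. In treated rats they were 8.96, 11 and 14.1, then 18.4, 15.8 and 18, and then 25.2, 37.8 and 18.5. All treated rats exceeded all controls, the 3 treated groups did not overlap one another, and the treated rats of Year 2 spread most widely. The log2 fold change was 1.52 (SE 0.21, FDR 0.000633) at Year 0.5, 2.06 (SE 0.13, FDR 6.91e-06) at Year 1 and 2.48 (SE 0.26, FDR 6.24e-05) at Year 2. Within treated rats the Year 2 level was 2.54-fold that of Year 0.5 (log2 1.35, SE 0.20, FDR 0.000364) and met the DEG criterion.

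*Lbp* (chr3:154786215-154813464) encodes lipopolysaccharide-binding protein, which hands bacterial lipopolysaccharide to CD14. Control rats had 44.5, 46.9 and 50 TPM at Year 0.5, 53.5, 61 and 59.4 at Year 1, and 50.8, 43.6 and 62 at Year 2. Treated rats had 86.3, 89.1 and 87, then 101, 91.7 and 105, and at Year 2 119 and 91.8 with the other rat between them. Groups within a year did not overlap, and the ranges of treated rats at Year 1 and Year 2 did. *Lbp* rose by a log2 fold change of 1.04 (SE 0.07, FDR 1.24e-05), 1.01 (SE 0.07, FDR 1.64e-05) and 1.23 (SE 0.14, FDR 0.00011) at the 3 successive time points. The first pair of values lies so close to the fold threshold that the Year 1 call was lost under library-size scaling (0.87), DESeq2 (1.00), limma (0.76), the model of all 18 rats (1.00), and without control replicate 1 (0.97) or MWCNT replicate 3 (0.98). The Year 0.5 call was lost under library-size scaling (0.93), limma (0.88) and without control replicate 1 (1.00), with every FDR still below 0.05.

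*A2m* (chr4:154309426-154359137) encodes alpha-2-macroglobulin, a broad protease trap and the classical strong acute phase protein of the rat. Controls held few reads: 51, 0 and 33 at Year 0.5, 18, 35 and 18 at Year 1, and 12, 0 and 10 at Year 2. Treated rats held 542, 868 and 264, then 358, 601 and 419, and then 778, 646 and 671. On the length-corrected scale the control means were 0.772 ± 0.693, 0.68 ± 0.307 and 0.225 ± 0.196 TPM and the treated means 13.1 ± 5.31, 11.4 ± 2.15 and 18.3 ± 2.98 TPM (SD, n = 3). Every treated rat was above every control, and the treated groups of the 3 years overlapped, apart from Year 1 and Year 2. *A2m* was upregulated 18.1-fold at Year 0.5 (log2 4.18, SE 0.60, FDR 0.000772), 20.1-fold at Year 1 (log2 4.33, SE 0.28, FDR 9.52e-06) and 94.1-fold at Year 2 (log2 6.56, SE 0.40, FDR 2.91e-06). The Year 2 ratio rests on 22 control reads against 2095, with a depth-corrected ratio of 84.5 and a 95% counting interval of 55.6 to 135. Leaving out control replicate 1 moved the Year 0.5 value to 4.85, and leaving out control replicate 2, the lung with 0 reads, moved the Year 2 value to 5.94. *A2m* has close relatives in the rat, among them *Pzp*, *Mug1* and *Mug2*, whose own counts were too low to be tested, and how the counting divided shared reads among them was not tested.

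*Orm1* (chr5:79179417-79182820) encodes alpha-1-acid glycoprotein, a carrier of small molecules. It had 0, 0 and 0 reads in controls at Year 0.5, 2, 0 and 1 at Year 1, and 3, 0 and 5 at Year 2. In treated rats it had 5, 1 and 1, then 64, 42 and 17, and then 47, 96 and 100. At Year 0.5 the treated sum of 7 reads was 2.01 times a floor of 3 reads over the control group, corrected for depth. That ratio leaves out the counting error of the 7 reads, and no test was made. At Year 1 the depth-corrected ratio of 123 to 3 reads was 39.3 (95% counting interval 13.1 to 193), and at Year 2 that of 243 to 8 reads was 26.9 (13.5 to 63.1). The edgeR log2 fold changes were 5.26 (SE 0.79, FDR 0.000939) and 4.83 (SE 0.60, FDR 0.000168), and they moved to 6.19 without control replicate 1 at Year 1 and to 4.23 and 5.64 without control replicates 2 and 3 at Year 2. Within treated rats *Orm1* was 36.3-fold higher at Year 2 than at Year 0.5 (log2 5.18, SE 0.74, FDR 0.000374). From Year 0.5 to Year 1 the difference was 4.16 (SE 0.75, FDR 0.0543), which missed the threshold. It passed under DESeq2 (4.21), limma (2.04) and without the low-count filter (4.16), and when control replicate 3 of Year 0.5 (4.16), control replicate 2 of Year 2 (4.16) or MWCNT replicate 3 of Year 1 (4.52) was left out.

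*Itih4* (chr16:6970342-6985579) encodes a member of the inter-alpha-trypsin inhibitor heavy chain family. Its levels were low throughout, at 0.516, 0.333 and 0.58 TPM in controls at Year 0.5, 0.619, 0.664 and 0.671 at Year 1, and 0.493, 0.57 and 0.821 at Year 2. Treated rats had 1.12, 1.5 and 1.54, then 1.8, 1 and 1.43, and then 0.626, 0.952 and 0.831. The groups were apart at the first 2 time points and overlapped at Year 2. The log2 fold change was 1.67 (SE 0.32, FDR 0.00347) at Year 0.5, 1.33 (SE 0.30, FDR 0.00745) at Year 1 and 0.58 (SE 0.36, FDR 0.209) at Year 2. The Year 2 sums of 62 and 41 reads gave a ratio of 1.34 with a counting interval of 0.89 to 2.04. With limma on log2(TPM + 1), which compresses low values, the log2 differences of 0.69 and 0.53 at Year 0.5 and Year 1 no longer met the fold threshold.

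**Figure D3:**
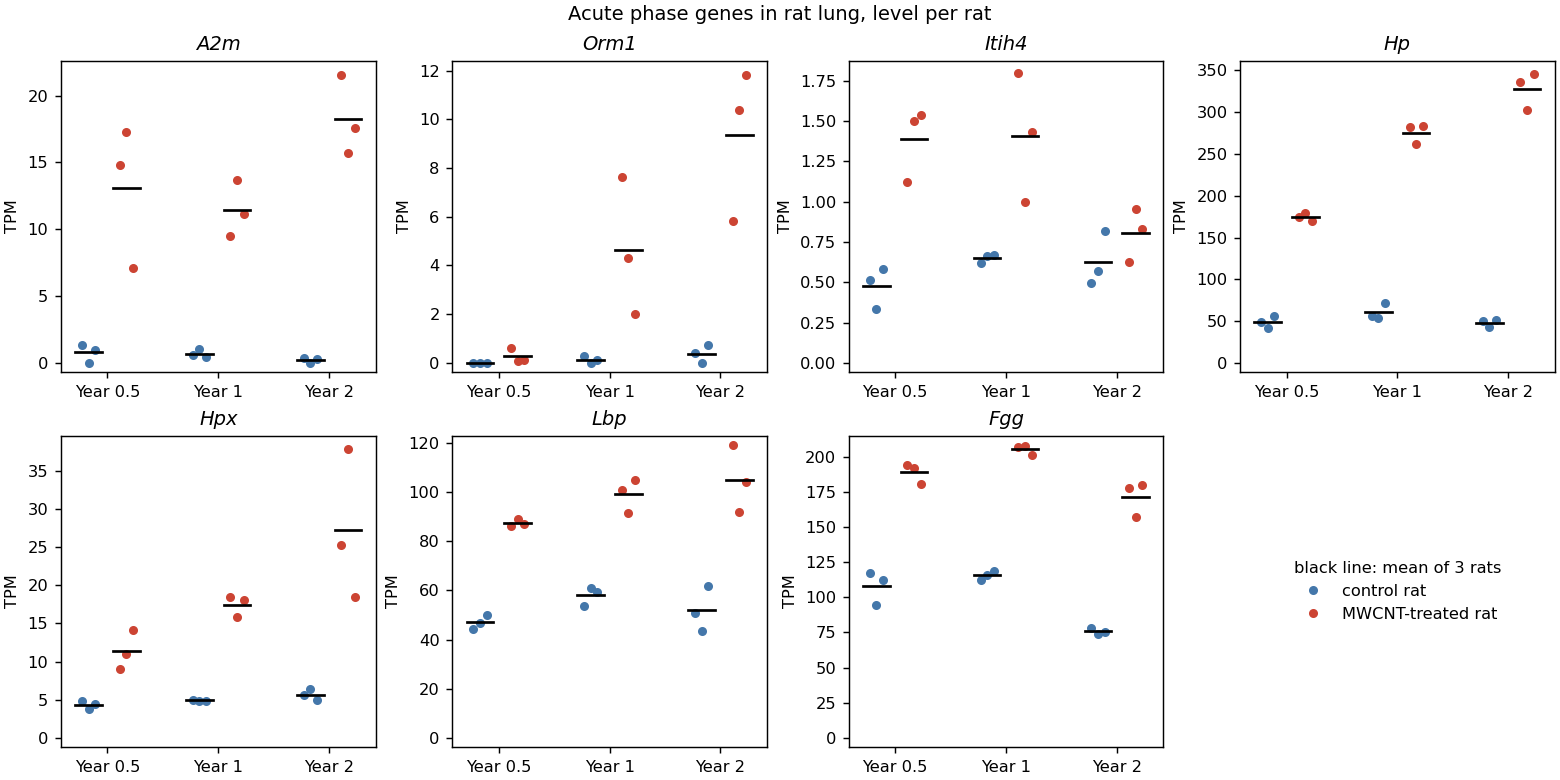
Level in TPM of each tested member in every lung, by year and treatment, on linear axes that include 0, with a black line at the mean of 3 rats. Treated and control rats overlap for *Itih4* at Year 2, and *Orm1* at Year 0.5 is at most 0.614 TPM in any rat.

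The change of the treatment effect with time was tested as an interaction in a model of all 18 rats, called at FDR below 0.05. *Hp* was the only member called between Year 2 and Year 0.5, with a treatment effect larger by 1.03 on the log2 scale at Year 2 (SE 0.15, FDR 0.0048), and 1.31% of 14843 genes were called in this contrast. The corresponding values were 0.45 for *Fgg* (SE 0.11, FDR 0.0581), 0.96 for *Hpx* (SE 0.31, FDR 0.157), 2.38 for *A2m* (SE 0.98, FDR 0.278) and -1.09 for *Itih4* (SE 0.43, FDR 0.255). *Fgg* passed under DESeq2 (0.44) and without control replicate 2 of Year 0.5 (0.53), MWCNT replicate 2 of Year 1 (0.45) or MWCNT replicate 2 of Year 2 (0.52), and *Hpx* without MWCNT replicate 3 of Year 2 (1.18). The drop of *Itih4* below the DEG criterion at Year 2 was therefore not shown to be a difference between the years. No member was called by edgeR between Year 2 and Year 1, where 0.478% of genes were. *Hp* (0.58, SE 0.15, FDR 0.0729), *A2m* and *Fgg* had unadjusted p below 0.05, as had 2446 of all 14843 genes. DESeq2 called 512 genes there, *Hp* among them. Between Year 1 and Year 0.5 edgeR called 0% of genes (1260 genes and, of the members, *Hp* at unadjusted p below 0.05), DESeq2 called 6 genes and limma 1, none of them a member.

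Along time in treated rats, 2 of 7 tested members, *Orm1* and *Hpx*, met the DEG criterion from Year 0.5 to Year 2, against 2.34% of all genes. *Orm1* was tested here only through the treated rats of Year 1 and Year 2, where it was high, so its call adds nothing to this count and *Hpx* is the 1 that does. None did from Year 0.5 to Year 1 with edgeR, against 0.0472% of all genes. In that contrast 5 members, *Orm1*, *Hp*, *Lbp*, *Fgg* and *Hpx*, had unadjusted p below 0.05, as had 1371 of all 14843 genes. *Orm1* adds nothing here either, for the same reason. DESeq2 called 18 genes there and limma 6, with 1 member in each, *Orm1*. In control rats no member was called by edgeR from Year 0.5 to Year 2, against 0.633% of genes, with *Orm1* and *Fgg* at unadjusted p below 0.05, 1 member called by DESeq2 and 0 by limma. From Year 0.5 to Year 1 edgeR called 0% of genes in control rats, with 1041 genes at unadjusted p below 0.05, *Hp* and *Lbp* among them. DESeq2 called 7 genes there and limma 0, with 0 members in either.

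Other genes of the acute phase response were read from a list of 58, of which 49 had a row and 33 passed the filter in each year. At Year 0.5, 18 were called higher and 1 lower, at Year 1 21 and 0, and at Year 2 23 and 2. That is 57.6%, 63.6% and 75.8% of those tested, against 9.1%, 10.2% and 16.4% of all genes. Their median log2 fold changes were 1.09, 1.15 and 1.54, where the median of all tested genes was -0.02, 0.00 and -0.01. *Itih1*, a relative of *Itih4*, rose most steeply, by 4.08, 4.75 and 4.79. Its controls had 8 to 14 reads at Year 0.5, 5 to 11 at Year 1 and 1 to 6 at Year 2. Treated rats had 177 to 261, 176 to 201 and 77 to 94. At Year 1 and Year 2 it passed the filter through treated rats alone, so those calls add nothing to these shares. At Year 0.5 its controls alone would not have passed, which limits what that call adds. *Lcn2* (lipocalin, which withholds iron from bacteria) rose by 2.85, 3.38 and 3.28, and complement *C3* by 2.13, 2.32 and 3.30. The chains of the complement regulator C4b-binding protein rose as well, *C4bpa* by 2.47, 2.66 and 2.86 and *C4bpb* by 2.01, 3.80 and 2.01. Controls had 2 to 5, 0 to 4 and 4 to 8 reads of *C4bpb*. Treated rats had 14 to 20, 14 to 34 and 20 to 29. *C4bpb* thus passed the filter through treated rats alone, and its calls add nothing to the shares above. *Il1rn*, the interleukin-1 receptor antagonist, rose by 2.37, 2.62 and 2.98. *Serpina1*, the main elastase inhibitor of plasma, went the other way, at -1.50 at Year 0.5 and -1.39 at Year 2, with -0.48 (FDR 0.0704) at Year 1. *Rbp4*, a retinol carrier and negative acute phase protein, was lower at Year 2 (-1.08) and not called at Year 0.5 (-0.68) or Year 1 (-0.37).

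Products of the liver in that list differed in whether lung held enough reads. *Crp*, *Itih2*, *F2*, *Plg* and *Alb* passed the filter in no year, and they are named here after their values were seen. *Serpinf2* (an inhibitor of plasmin) was called at Year 0.5 (1.87) and Year 1 (1.15), and *Kng1* (kininogen) at Year 1 (1.48) and Year 2 (2.30). *Tf* (transferrin) was called at Year 1 (1.38) and Year 2 (2.19), and *Cp* (ceruloplasmin) at Year 0.5 (1.00) and Year 2 (1.54), likewise named after their values were seen.

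Of 54 cytokines, receptors and transcription factors that drive the response in liver, 3 of 47 tested were called higher at Year 0.5, 6 of 48 at Year 1 and 7 of 49 at Year 2, with 2 called lower at Year 2. That is 6.38%, 12.5% and 18.4% called in either direction, near the 9.1%, 10.2% and 16.4% of all genes. Their median log2 fold changes were 0.21, 0.30 and 0.24. *Osm*, which encodes oncostatin M of the interleukin-6 family, was higher by 1.70, 1.29 and 1.49. *Lif*, of the same family, was called at Year 1 (1.14) and Year 2 (1.20), and its receptor *Lifr* was called lower at Year 2 (-1.11). The decoy receptor *Il1r2* was higher by 1.66, 1.65 and 1.88, and *Il1rl1*, the interleukin-33 receptor, by 1.16 at Year 1 and 1.97 at Year 2, while *Il33* itself was lower at Year 2 (-1.27). *Foxa3*, a transcription factor of the liver, was called at Year 0.5 (1.78) and Year 2 (1.88). At Year 0.5 its controls had 4 to 13 reads and treated rats 17 to 46. Those controls alone would not have passed the filter, which limits what the Year 0.5 call adds. At Year 2 its controls had 2 to 6 reads and treated rats 16 to 17. It passed the filter there through treated rats alone, so that call adds nothing to the share called.

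Some well known genes of this pathway are given with their values although the naming rule did not pick them. *Il6* was too low to be tested, with 1 to 3 reads in controls and 10 to 22 in treated rats at Year 0.5, 1 to 5 against 7 to 12 at Year 1, and 0 to 7 against 10 to 21 at Year 2, without overlap and without a test. *Osmr*, the oncostatin M receptor, was called at Year 1 (1.07) and Year 2 (1.39). *Stat3* had small log2 fold changes of 0.37, 0.28 and 0.35 with FDR of 0.0017, 0.0108 and 0.00284, below the fold threshold. *Socs3*, a feedback target of STAT3, had -0.41, 0.34 and -0.25 with FDR of 0.175, 0.338 and 0.217.

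Receptors and partners of the member proteins came from a list of 50, with 47 rows. At Year 0.5, 10 of 37 tested were called higher and 2 lower, at Year 1 10 of 38 and 1, and at Year 2 13 of 39 and 2, with medians of 0.32, 0.29 and 0.45. In either direction 32.4%, 28.9% and 38.5% were called, against 9.1%, 10.2% and 16.4% of all genes. *Cd14*, which receives lipopolysaccharide from Lbp, was higher by 1.81, 1.60 and 1.99. Integrin genes for fibrinogen receptors of myeloid cells were higher too, *Itgam* by 2.36, 2.30 and 2.46 and *Itgax* by 1.88, 1.45 and 1.49. Of the genes that start or dissolve clots, tissue factor *F3* was higher by 1.54, 1.53 and 2.46, *Plau* by 1.27, 1.60 and 1.86, and its receptor *Plaur* by 1.73, 1.24 and 2.03. *F13a1*, which crosslinks fibrin, was lower at Year 0.5 (-1.32), and thrombomodulin *Thbd*, an anticoagulant of endothelium, at Year 2 (-1.03). *Cd163*, the macrophage receptor for the haptoglobin-haemoglobin complex, was lower at Year 1 (-1.15) and differed by -0.25 (FDR 0.559) at Year 0.5 and 0.44 (FDR 0.0234) at Year 2. *Hmox1*, which degrades haem and was named after its values were seen, was higher by 1.54, 1.46 and 1.94. *Egf* was lower at Year 0.5 (-1.17) and Year 2 (-1.41).

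**Figure D4:**
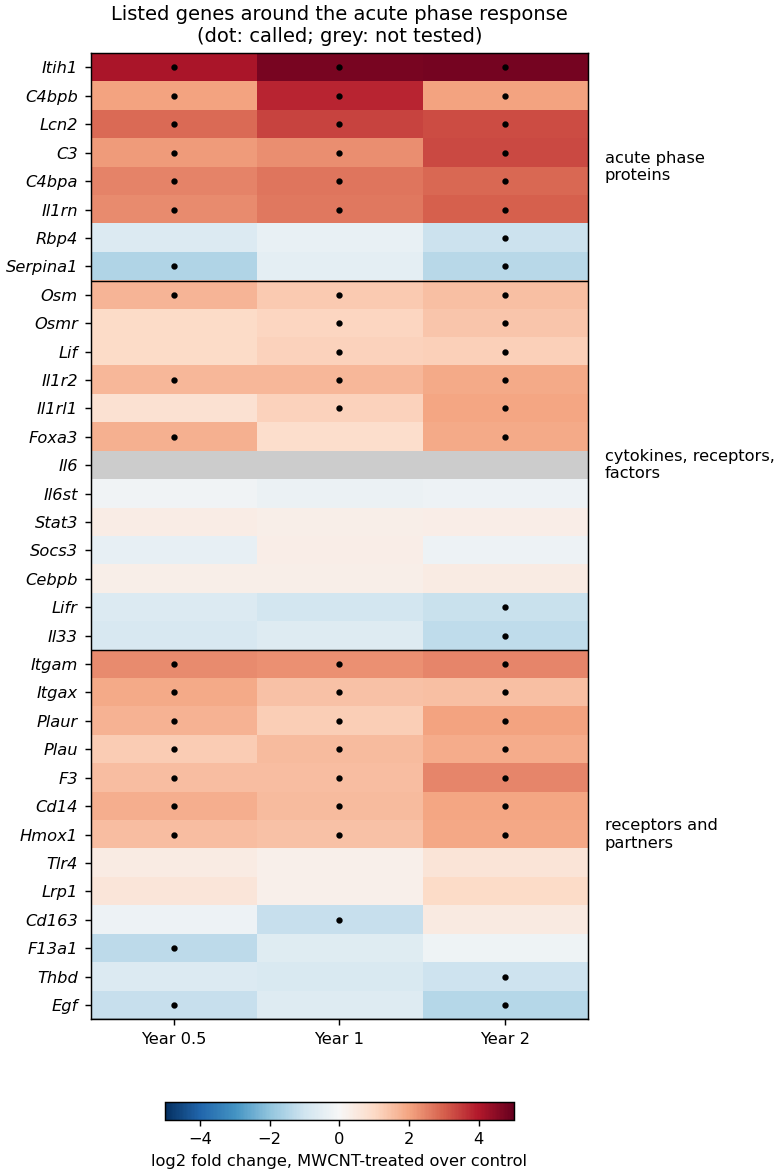
Log2 fold change in MWCNT-treated over control lungs of listed genes around the acute phase response, by year, on a colour scale from blue (lower) to red (higher). Dots mark called genes and grey cells genes that were not tested. *Itih1* shows the darkest red, at 4.08 to 4.79, *Il6* is grey, and *Serpina1*, *Rbp4*, *Lifr*, *Il33*, *Thbd* and *Egf* are blue.

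Hepatocyte markers were looked at because liver is the classical source. Of 21 listed, 19 had a row, and their summed level was 17.4 to 42.8 TPM in control and 5.52 to 12.1 TPM in treated lungs. *Cyp2e1*, which airway cells also express, made up most of that sum, at 13.5 to 38.4 TPM in control and 3.4 to 9.64 TPM in treated lungs, and it was called lower in each year. The other 18 markers summed to 0.793 to 5.35 TPM in control and 1.04 to 4.65 TPM in treated lungs, which overlap. *Ambp* and *Serpina6* had 0 reads in all 18 lungs. *Alb*, the defining transcript, had at most 7 reads in any lung, with sums over 3 rats of 0, 1 and 8 in controls and 6, 7 and 16 in treated rats at the 3 time points. Macrophage markers (12) summed to 755 to 1009 TPM in control and 5009 to 8887 TPM in treated lungs, with 10, 9 and 10 of them called higher at the 3 time points and 1, *Cd163*, called lower at Year 1. Alveolar type 2 cell markers (10) summed to 28478 to 37717 against 52493 to 62480 TPM, with 4, 4 and 5 called higher. *Cd163*, *Itgax* and *Chi3l1* are both macrophage markers and listed genes described above, and *Cd14* is in more than 1 of the gene lists. Macrophage and alveolar type 2 sums were thus higher in treated lungs, whereas hepatocyte sums were lower, or overlapped without *Cyp2e1*. The part of these cells in the members' changes was not tested.

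Marker sums were lower in treated lungs without overlap for alveolar type 1 cells (6612 to 7757 against 3016 to 4910 TPM), club cells (18289 to 33066 against 10765 to 15770), endothelium (2948 to 4011 against 886 to 2063) and red cells (17215 to 43238 against 4367 to 10976). Such sums are weighted towards the most abundant markers. The median log2 fold change of club cell markers was -0.87, -0.48 and 0.21. Of the 7 tested, 2, 1 and 1 were called lower and 1 higher in each year. The other groups of this comparison had negative medians in each year. Neutrophil marker sums were higher in treated lungs in each year, at 375 to 402 against 220 to 266 TPM at Year 0.5, 837 to 1023 against 245 to 393 at Year 1, and 654 to 1163 against 248 to 376 at Year 2. The median log2 fold change of the 8 tested was 0.08, 0.40 and 0.36, with 1, 3 and 3 called higher. Lymphoid sums were higher without overlap at Year 0.5 (487 to 844 against 426 to 455) and Year 1 (610 to 827 against 443 to 567). They overlapped at Year 2 (685 to 1964 against 417 to 770). The median log2 fold change of the 10 lymphoid markers was negative each year, at -0.66 at Year 0.5 and -0.56 at Year 1. In each year 2 of them were called higher. Called lower were 2 at Year 0.5, 0 at Year 1 and 5 at Year 2. The higher sums thus do not stand for a rise of the lymphoid markers as a set. Mesothelial sums were lower without overlap at Year 1 (427 to 463 against 484 to 505) and Year 2 (357 to 463 against 471 to 511), those of fibroblasts at Year 1 (1134 to 1279 against 1439 to 1629) and those of heart muscle at Year 0.5 (94.3 to 125 against 193 to 681), and they overlapped in the other years. The mesothelial median log2 fold change was 0.02 at Year 1, with 0 of 7 markers called. At Year 2 it was -0.08, with 1 of 8 called lower. For fibroblasts at Year 1 it was -0.35, with 0 of 9 called. For heart muscle at Year 0.5 it was -1.62, with 7 of 9 called lower. The part of these groups in the members' changes was not tested either.

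The genes whose log2 CPM followed each member most closely over the 18 rats are given as a description, since the 18 lungs share treatment groups. *Hp* was followed by *Ctsb* (r = 0.988), *Gaa* (0.987) and *Dgat2* (0.987), of which the first pair encode lysosomal enzymes. *Lbp* was followed by *Klhl21* (0.990), *Ctss* (0.986) and *LOC103689965* (0.983), and *Fgg* by *Muc1*, *Napsa* and *Ly6i* (0.983 each). *Napsa*, a protease of surfactant processing, is also in the alveolar type 2 marker list. For *Hpx* the closest were *Bhlha15* (0.975), *Tec* (0.972) and *Tcirg1* (0.968), and for *A2m* they were *Idh3a* (0.962) and *Galc* (0.960). *Orm1* was followed by *Vat1l* (0.937), *Ephb6* (0.937) and the acute phase gene *Tf* (0.926), and *Itih4* by *Snx25* (0.916), *Syt7* (0.908) and *St3gal1* (0.906). Once each group's mean was removed, the values fell to 0.31 for *Hp* with *Ctsb*, 0.38 for *Fgg* with *Napsa* and 0.38 for *Orm1* with *Tf*, and stayed at 0.85 for *Lbp* with *Klhl21* and 0.77 for *A2m* with *Idh3a*. Between members, *Hp* and *Lbp* had r = 0.98 over the 18 rats and 0.52 after removal of the group means, and *Hp* and *Hpx* had 0.95 and -0.26.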

How the data were processed

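Lung RNA of 18 rats was sequenced from NEBNext Ultra II libraries. The authors mapped and counted reads with CLC Genomics Workbench 22.0.2 against Rnor_6.0, as named in the methods and the submitters' processing notes, and deposited 1 table per year with read counts per gene (not normalized) and TPM (length-corrected and scaled to a fixed total) for each rat. Deposited CPM and RPKM columns, and the authors' own fold changes and p-values, were not used. Counts were tested with edgeR 4.0.16 in R 4.3.3 (filterByExpr with a minimum count of 10, TMM scaling, quasi-likelihood F test, Benjamini-Hochberg over all tested genes). Each year was fitted on its 6 rats, and interactions and time effects on all 18. DESeq2 1.42.0, limma 3.58.1 on log2(TPM + 1), other filters and scalings, a replicate block, and leaving out each rat were alternatives. The edgeR code was tested on simulated data. Counting intervals are exact at 95% and cover counting error only.

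The members and the lists of other genes and cell type markers were chosen with earlier results of these data known. The naming rule took all members and, per list and year, up to 4 called genes with the largest rise and 2 with the largest fall, plus the 3 genes most alike to each member. Some genes picked by this rule are not reported here. The rats are separate animals, and the labels name no batch. Mean chi-square per gene between rats of a group was 6.24 to 20.3, so no library was a duplicate. RefSeq promoter windows (GRCr8) were matched by symbol for 7 of 10 members, and not for *A2m*, *Hp* and *Lbp*. No coordinates were converted between builds.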

Additional observations from a re-analysis of the deposited data

Results flagged for a closer look

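The treatment effect on *Hp* differed between time points. Its log2 fold change in MWCNT-treated over control lungs was 1.97 at Year 0.5 and 2.99 at Year 2, and the edgeR interaction was 1.03 (SE 0.15, FDR 0.0048), with each of the 3 treated rats at Year 2 above each of the 3 at Year 0.5. The interaction compares rats of different ages and different numbers of doses, which cannot be told apart.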

How the results depend on the processing

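Of 255 recomputed log2 fold changes of members in treated over control lungs, 240 kept their direction and side of the thresholds, 13 fell below them, 2 passed them and 0 reversed. The number of members called at Year 0.5 fell from 5 to 3 when at least 10 counts were required in every rat, which removed genes from the test, and to 3 with limma on log2(TPM + 1), with which it fell from 7 to 4 at Year 1. That scale understates changes of low genes: *A2m* at Year 1 gave 2.89 and *Orm1* 2.20. Interactions between Year 2 and Year 1 rose from 0 members to 1 with DESeq2 (*Hp*), and those between Year 2 and Year 0.5 from 1 to 2 with DESeq2 (*Hp* and *Fgg*) and with limma (*Orm1* and *Hp*), and ranged from 1 to 2 over left-out rats. Members changed with time in control rats from Year 0.5 to Year 2 rose from 0 to 1 with DESeq2 (*Orm1*, all of whose Year 0.5 controls had 0 reads). In treated rats from Year 0.5 to Year 1 they rose from 0 to 1 (*Orm1*) with no filter, DESeq2 and limma, and ranged from 0 to 1 over left-out rats. Scaling by library size shifted the median gene by -0.10, -0.13 and -0.17 at the 3 years. With the replicate block, the members called stayed at 5, 7 and 6, and those with interactions at 0, 0 and 1. Deviations of same-numbered rats had a mean correlation of 0.007 (-0.147 to 0.107 over 9 pairs, 14843 genes), so the numbers paired no rats. Depth limits *Fga*, *Fgb* and the *Orm1* and *A2m* controls.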
